A study of Mus musculus with 8 samples.

Results

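The 10 genes described here encode a chosen set of antioxidant enzymes, most of which remove superoxide, hydrogen peroxide or lipid peroxides. They were taken by name as the superoxide dismutases Sod1, Sod2 and Sod3, catalase (Cat), the glutathione peroxidases Gpx1, Gpx3 and Gpx4, the peroxiredoxins Prdx1 and Prdx6, and the quinone reductase Nqo1. These are 10 of the 54532 genes listed in the series, and all 10 had enough reads to be tested in every comparison. RNA-seq was performed on 8 brain libraries of C57BL/6 mice, which were male by the study's methods, taken on Day 21 of the model. Mice of the PTS + RS group had a photothrombotic stroke, a clot induced by light in the cortex, and then restraint stress. Mice of the RS group had the restraint stress without a stroke. Each of these groups gave 2 libraries with the tissue label cortex, and the paper describes the tissue as damaged cortex and also as cortex near the damage. A separate set of PTS + RS mice was given either RGFP109 or a control treatment. RGFP109 is named an HDAC3 inhibitor in the labels, and the paper describes it as a histone deacetylase inhibitor selective for HDAC1 and HDAC3. It was injected under the skin at 60 mg/kg each day, for 2 weeks by the paper's methods and for 21 days by a figure legend. The labels call the control NaCl. The paper calls this control vehicle, and RGFP109 was dissolved in DMSO and hydroxypropyl-β-cyclodextrin with sodium acetate, so that whether control mice received this solution or saline is uncertain. RGFP109 and NaCl gave 2 libraries each, with replicate 1 labelled cortex and replicate 2 labelled amygdala, and all 4 come from mice with stroke and restraint stress. An age is stated for mice of a behavioural test and not for the sequenced mice, and whether a library holds a single mouse or a pool is not given in the sources used here, so that the p-values measure the spread between libraries, which may be technical.

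Superoxide leaks from mitochondria and is made by the NADPH oxidases of microglia and infiltrating leukocytes. Superoxide dismutases turn it into hydrogen peroxide, which catalase, the glutathione peroxidases and the peroxiredoxins then reduce to water, while Gpx4 acts on peroxidised lipids in membranes. Many of these genes are targets of NRF2, the transcription factor encoded by Nfe2l2, and oxidative stress is a known component of ischaemic brain injury.

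Each library held between 15902013 and 21712033 counts on genes. Replicates differed beyond sampling noise (chi-square per gene 4.95 to 83.8). The NaCl replicate 1 library stood apart through olfactory bulb genes, with a summed level of 1563 CPM (counts scaled to the library size) for 10 markers against 23.6 to 49.3 CPM in the other libraries. The markers of the regions went with the tissue labels only in part. A list of 10 cerebral cortex markers summed to 1603 and 1395 CPM in the libraries labelled amygdala and to 619 to 873 CPM in those labelled cortex, which goes against the labels. A list of 10 amygdala markers summed to 648 and 822 CPM in the libraries labelled amygdala and to 322 to 386 CPM in 5 of the 6 libraries labelled cortex, which goes with the labels, but to 892 CPM in the NaCl replicate 1 library, which is also labelled cortex. The sum hides a mixed list. Among the RGFP109 and NaCl libraries, the log2 fold change of the amygdala label over the cortex label was positive for 7 of these 10 markers. It was negative for 3, and the values ran from -1.74 to 3.24. Striatum markers were at 1229 and 1274 CPM in the libraries labelled amygdala and at 301 CPM or less in the others. Choroid plexus markers ranged from 146 to 5566 CPM and differed within the PTS + RS group, with 2544 and 227 CPM. The summed levels by library show this spread.

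**Figure D1:**
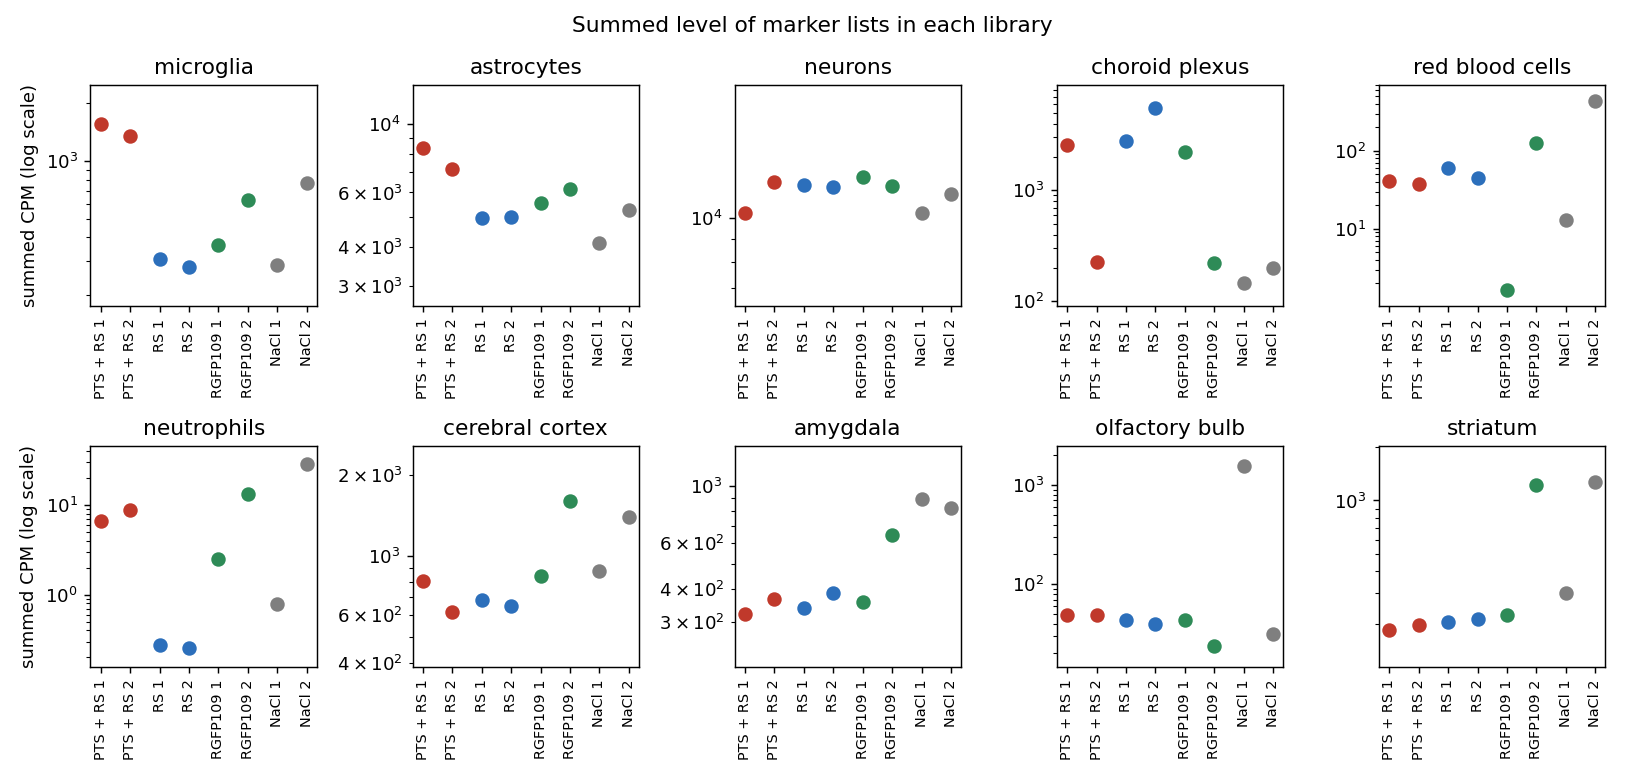
Summed CPM (log scale) of lists of marker genes in each of the 8 libraries, named by group and replicate and coloured by group. Microglia markers lie between 1343 and 1558 CPM in the PTS + RS libraries and between 281 and 307 CPM in the RS libraries, and the NaCl replicate 1 library alone has olfactory bulb markers at 1563 CPM.

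Levels were compared between genes by FPKM, the read count scaled to gene length and library size. Gpx4 had the highest FPKM of the 10 genes in every library, with a median of 89.4 and a range from 79.8 to 99.97. It was followed by Prdx6 with a median of 40.4 FPKM, Gpx1 with 39.0, Prdx1 with 32.5 and Sod1 with 28.9. The peroxisomal enzyme Cat (median 16.9 FPKM) and the mitochondrial enzyme Sod2 (16.5 FPKM) came next. Their likeness in FPKM rests on the annotated gene length, which is 2613 bases for Cat and 10008 for Sod2. By counts, Sod2 had 2355 to 3661 per library and Cat 621 to 969. Gpx3, Sod3 and Nqo1 were low, with medians of 5.62, 3.87 and 2.97 FPKM. The order was stable at the top and changed in the middle, where Gpx1 ranked from 2 to 5 and Sod1 from 2 to 6 across libraries. Gpx3 varied the most, with its highest FPKM 6.69 times its lowest, whereas the highest level of Gpx4 was 1.25 times its lowest. The summed CPM of all 10 genes was 911 and 843 in the PTS + RS libraries, 749 and 743 in the RS libraries, 860 and 892 with RGFP109, and 868 and 950 with NaCl.

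**Figure D2:**
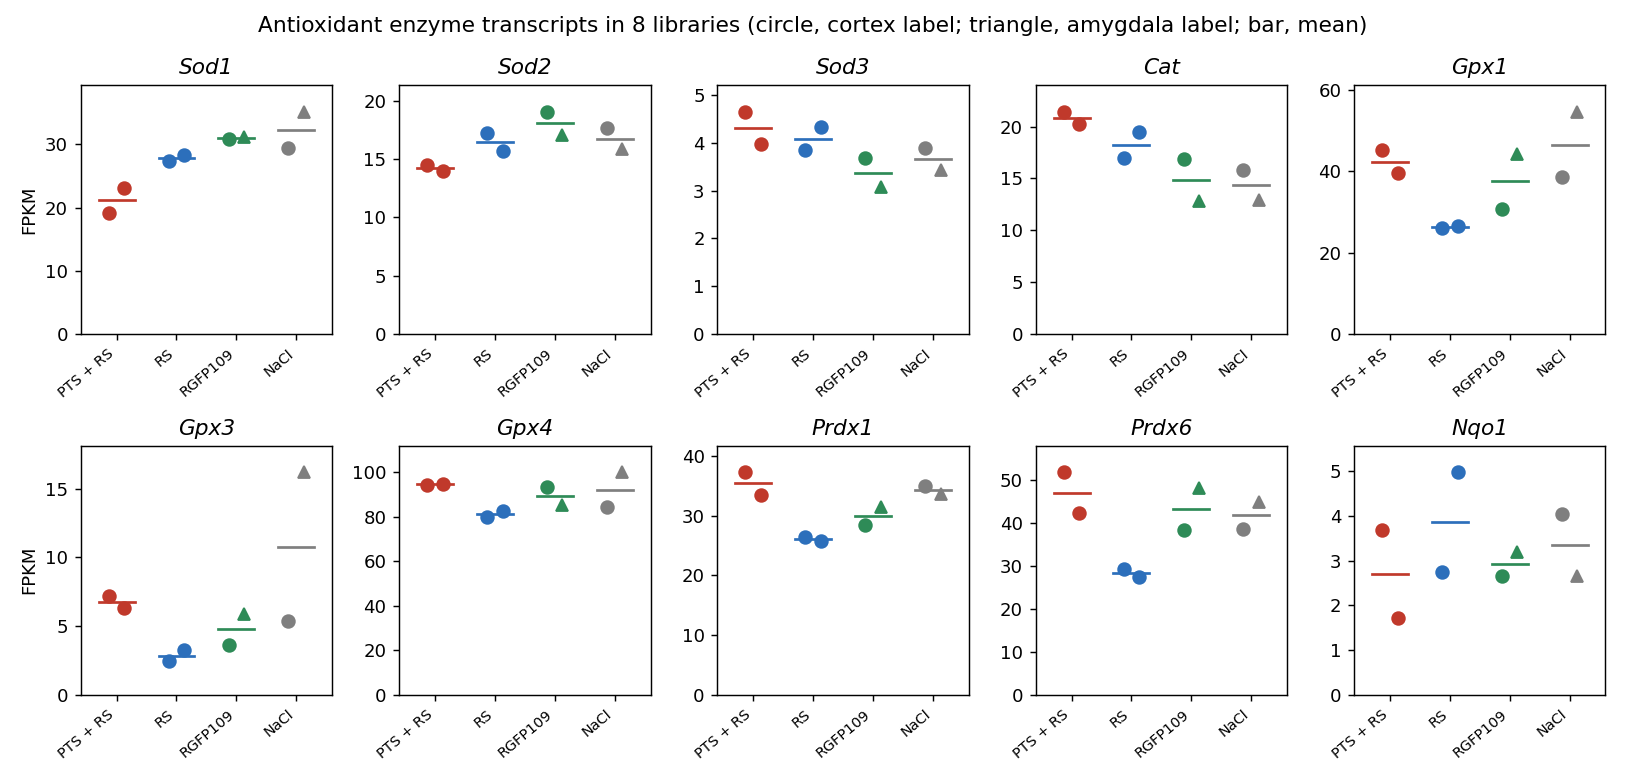
FPKM of the 10 antioxidant enzymes in 8 libraries by group, with the cortex label as circles, the amygdala label as triangles and the mean of 2 libraries as a bar, each vertical axis starting at 0. Gpx1, Gpx3, Gpx4, Prdx1 and Prdx6 have their lowest group mean in RS, and Gpx3 reaches 16.2 FPKM in 1 NaCl library.

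Across the 4 groups, the mean FPKM was lowest in RS for Gpx1, Gpx3, Gpx4, Prdx1 and Prdx6, and for these 5 genes both RS libraries were below the libraries of the next group. Mean FPKM was lowest in PTS + RS for Sod1, Sod2 and Nqo1, and the libraries of the next group did not overlap those of PTS + RS for Sod1 and Sod2. For Sod3 and Nqo1 every pair of neighbouring groups overlapped. PTS + RS and NaCl both come from stroke mice under restraint stress, yet they were processed in separate tables. Levels set across the tables are given without a test. The share of all genes with such orders across the 4 groups was not computed, so that these orders cannot be read as particular to the enzymes.

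The comparison of PTS + RS with RS asks what a stroke adds to restraint stress. The glutathione peroxidase genes Gpx3 and Gpx1 and the peroxiredoxin genes Prdx6 and Prdx1 were higher after stroke, by 2.39-fold for Gpx3, 1.66-fold for Prdx6, 1.62-fold for Gpx1 and 1.36-fold for Prdx1 (edgeR quasi-likelihood test, n = 2 libraries per group). In the same families, Gpx4, Gpx7, Gpx8, Prdx2, Prdx3, Prdx4 and Prdx5 did not pass the test. Their log2 fold changes ran from -0.57 for Gpx8 to 0.52 for Gpx7. The PTS + RS libraries lay wholly above the RS libraries for Gpx4 and Gpx7 and overlapped them for the others. With 2 libraries per group, not passing does not show that a rise is absent. Superoxide dismutases and Nqo1 did not pass as higher either, and the log2 fold change was negative for Sod1, Sod2 and Nqo1. A gene passed the test at a Benjamini-Hochberg adjusted p under 0.05 over all 17581 tested genes, and 4 of the 10 antioxidant enzymes passed as higher and 0 as lower. Of all tested genes, 3.55% passed, 2.96% as higher and 0.586% as lower. At an unadjusted p under 0.05, 5 of the 10 were higher and 2 were lower, against 10.3% and 7.55% of all genes. The median log2 fold change was 0.21 for the 10 genes and -0.0015 for all genes tested. The PTS + RS libraries lay wholly above the RS libraries for 6 of the 10 genes and wholly below for 2, and 25.7% and 24.5% of all genes showed these separations. The number that passed as higher fell to 1 without RS replicate 1 and to 2 without RS replicate 2, while 1.91% and 1.84% of all genes passed as higher. It was 5 without PTS + RS replicate 1 or replicate 2, where 5.58% and 7.69% of all genes did so. The log2 fold changes with their intervals are drawn for all 3 comparisons.

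**Figure D3:**
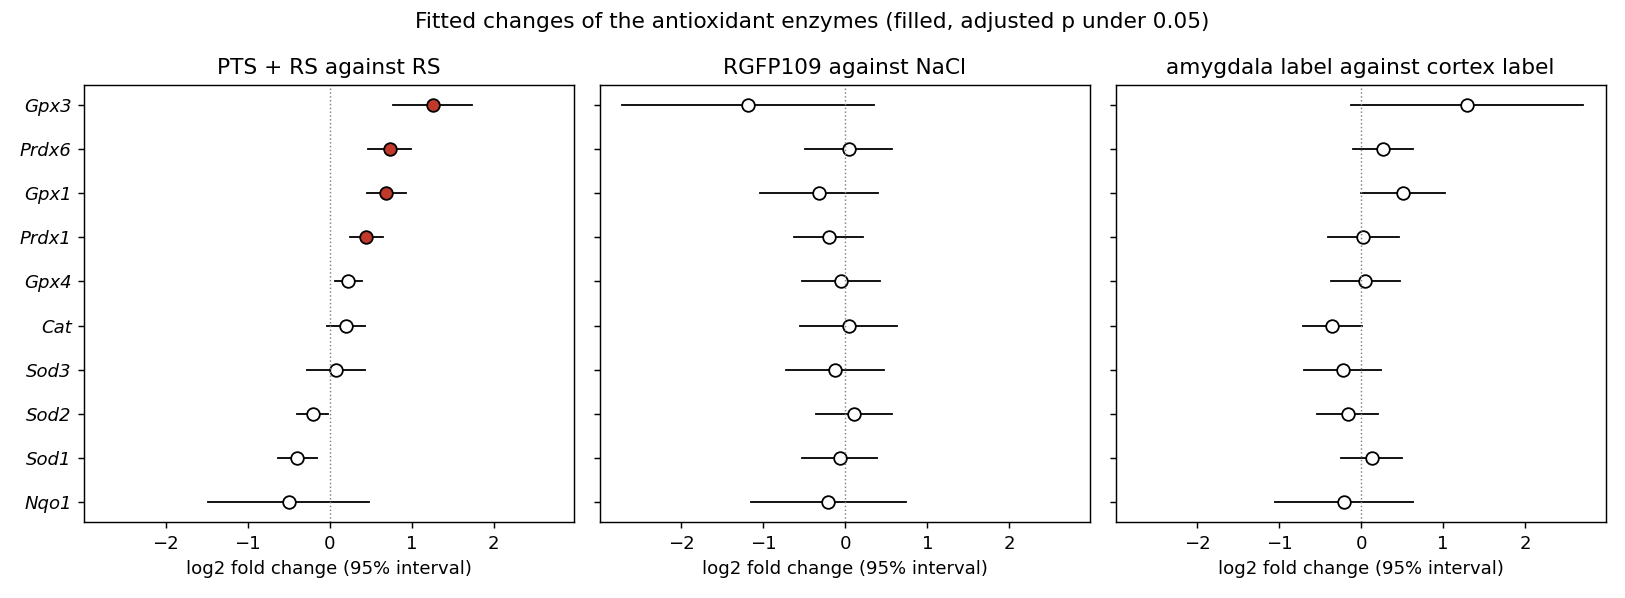
Log2 fold change of each antioxidant enzyme (points) with its 95% interval (lines) from edgeR in 3 comparisons, filled where the adjusted p was under 0.05. Gpx3, Prdx6, Gpx1 and Prdx1 are filled for PTS + RS against RS, and no gene is filled for RGFP109 against NaCl or for the tissue labels.

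The superoxide dismutases differ in where they act. Sod1, the copper and zinc enzyme of the cytosol (ENSMUSG00000022982, GRCm38 chr16:90220754-90226329, plus strand), had 76.9 and 92.1 CPM in the PTS + RS libraries and 109 and 113 CPM in the RS libraries. Both PTS + RS libraries were lower, and the log2 fold change of -0.40 (95% interval -0.63 to -0.16) did not pass the test (adjusted p = 0.0892, edgeR). Its adjusted p was 0.0358 with the replicate number as a block and 0.0012 without the filter on low counts (edgeR). In these fits 1.3% and 2.38% of all genes passed as lower. Sod1 did not pass with DESeq2 (adjusted p = 0.0722) or limma-voom (adjusted p = 0.0943). Without single libraries its log2 fold change ranged from -0.53 to -0.27. The opposite strand gene Scaf4 overlaps Sod1 and held 923 to 1136 counts in these 4 libraries. Reads in the shared stretch can be told apart only by strand, and the strand setting of the counting is not given in the sources used here. The part of the Sod1 counts that lies in this stretch was not measured. Ccs, the chaperone that loads copper into Sod1, had 9.81 and 8.80 CPM after stroke and 14.1 and 15.5 CPM in RS, and its log2 fold change of -0.67 did not pass either (adjusted p = 0.0710, edgeR). Sod2, the manganese enzyme of mitochondria (ENSMUSG00000006818, chr17:13006846-13040063, plus strand), had 146 and 141 CPM against 174 and 158 CPM, again without overlap, with a log2 fold change of -0.21 (adjusted p = 0.238, edgeR). Sod3, the secreted enzyme of the extracellular space (ENSMUSG00000072941, chr5:52363791-52371418, plus strand), had 17.6 and 14.9 CPM against 14.5 and 16.3 CPM, and the groups overlapped. Its log2 fold change of 0.08 had an interval from -0.27 to 0.43, and it turned to -0.044 without PTS + RS replicate 1 and to -0.0099 without RS replicate 1.

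Catalase breaks down hydrogen peroxide in peroxisomes. Cat (ENSMUSG00000027187, chr2:103453849-103485160, minus strand) had 56.6 and 53.1 CPM in the PTS + RS libraries and 44.7 and 51.0 CPM in the RS libraries. The groups did not overlap, but the log2 fold change of 0.20 was small against its 95% interval of -0.04 to 0.43 and did not pass the test (adjusted p = 0.356, edgeR).

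The glutathione peroxidases Gpx1, Gpx3 and Gpx4 carry selenocysteine in the active site, which is written by a TGA codon that would otherwise end translation. This codon is shown in capitals, with 12 bases on each side, from the coding exons of GENCODE M21 on GRCm38, because it is the feature by which these 3 members draw on selenium supply.
Gpx1, chr9:108339439-108339465, plus strand: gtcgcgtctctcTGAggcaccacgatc
Gpx3, chr11:54907244-54907270, plus strand: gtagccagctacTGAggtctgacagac
Gpx4, chr10:80054725-80054751, plus strand: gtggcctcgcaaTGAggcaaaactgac
Of the 27 bases, 13 are identical between Gpx1 and Gpx3, 17 between Gpx1 and Gpx4, and 16 between Gpx3 and Gpx4, counted without gaps.

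Gpx3, the secreted form (ENSMUSG00000018339, chr11:54902453-54910377, plus strand), had 225 and 192 counts in the PTS + RS libraries, or 13.1 and 11.5 CPM, and 80 and 94 counts in the RS libraries, or 4.41 and 5.93 CPM. Both PTS + RS libraries were well above the RS libraries, and Gpx3 was the only one of the 10 genes that passed the test with at least a doubling (log2 fold change 1.25, SE 0.21, adjusted p = 0.0227, edgeR), where 2.12% of all genes did so in this direction. Gpx1, the abundant cytosolic form (ENSMUSG00000063856, chr9:108338903-108340343, plus strand), had 65.8 and 57.3 CPM against 37.6 and 38.6 CPM. The gap between the groups was larger than the spread within them, with a log2 fold change of 0.69 (SE 0.10, adjusted p = 0.0138, edgeR). Without RS replicate 1 neither passed, with an adjusted p of 0.0813 for Gpx3 and 0.0569 for Gpx1 (edgeR), while their log2 fold changes were 1.05 and 0.67.

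Gpx4, which protects membranes from lipid peroxidation and thereby from ferroptosis (ENSMUSG00000075706, chr10:80047166-80056439, plus strand), had 164 CPM in both PTS + RS libraries and 138 and 143 CPM in the RS libraries. Its log2 fold change of 0.22 (95% interval 0.06 to 0.39) did not pass the test (adjusted p = 0.158, edgeR). It passed without either PTS + RS library, at an adjusted p of 0.04999 without replicate 1 and 0.0462 without replicate 2. The processed copy Gpx4-ps2 held 424 to 664 counts per library against 2266 to 3182 for Gpx4, and how reads shared by the pair were counted is uncertain. Gpx2, the intestinal form, had at most 2 counts in a library and was not tested.

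The peroxiredoxins reduce peroxides through a cysteine. Prdx6, the form with a single active cysteine that also acts on phospholipids (ENSMUSG00000026701, chr1:161240112-161251219, minus strand), had 250.6 and 203 CPM in the PTS + RS libraries and 142 and 132 CPM in the RS libraries. The groups were far apart, and the log2 fold change was 0.73 (SE 0.11, adjusted p = 0.0165, edgeR). Prdx1, a cytosolic form that is reduced by thioredoxin (ENSMUSG00000028691, chr4:116685544-116700822, plus strand), had 114 and 103 CPM against 80.7 and 78.4 CPM. Its log2 fold change of 0.45 (SE 0.08) was the smallest among those that passed (adjusted p = 0.0378, edgeR). Prdx1 did not pass without RS replicate 1 (adjusted p = 0.191) or RS replicate 2 (adjusted p = 0.295), and Prdx6 did not pass without RS replicate 2 (adjusted p = 0.0617).

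NRF2 binds antioxidant response elements, and the letters TGACNNNGC were searched on both strands of the windows from 250 bases before to 50 bases after the gene start (RefSeq, GRCm38.p6). Windows were found for 8 of the 10 genes, without Prdx6 and Sod3. The letters were present for Prdx1 and Sod1, and in 12.4% of all 32851 windows. The windows of Prdx1 and Sod1 are printed because both hold the letters while the genes had opposite signs after stroke, and that of Gpx3 because it had the largest fold change and holds no match. Capitals mark the match, which lies on the opposite strand in both genes, from -133 to -125 in Prdx1 and from -56 to -48 in Sod1.
Prdx1, chr4:116685349-116685648, plus strand: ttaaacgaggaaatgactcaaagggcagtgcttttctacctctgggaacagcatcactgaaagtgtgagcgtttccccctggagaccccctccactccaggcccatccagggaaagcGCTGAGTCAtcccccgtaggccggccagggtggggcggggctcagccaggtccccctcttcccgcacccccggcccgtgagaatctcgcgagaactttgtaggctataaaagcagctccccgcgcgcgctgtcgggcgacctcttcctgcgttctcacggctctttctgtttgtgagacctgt
Sod1, chr16:90220512-90220811, plus strand: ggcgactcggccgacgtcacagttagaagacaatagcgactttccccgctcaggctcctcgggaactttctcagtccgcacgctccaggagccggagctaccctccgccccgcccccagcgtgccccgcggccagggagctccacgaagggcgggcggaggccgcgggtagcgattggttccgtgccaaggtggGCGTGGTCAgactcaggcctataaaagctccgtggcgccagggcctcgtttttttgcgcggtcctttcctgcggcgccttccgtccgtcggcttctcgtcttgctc
Gpx3, chr11:54902604-54902903, plus strand: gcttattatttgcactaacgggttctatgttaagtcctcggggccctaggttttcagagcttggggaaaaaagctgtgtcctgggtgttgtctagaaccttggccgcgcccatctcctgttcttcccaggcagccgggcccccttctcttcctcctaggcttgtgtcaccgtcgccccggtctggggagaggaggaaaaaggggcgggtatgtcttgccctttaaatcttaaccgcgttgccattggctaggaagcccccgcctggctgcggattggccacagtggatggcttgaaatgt
The AP-1 letters TGANTCA were found only for Prdx1, from -237 to -231 and from -131 to -125, the latter overlapping the first motif, and in 7.81% of all windows. A match describes the letters of the window and not binding.

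Nqo1, a quinone reductase and a common reporter of NRF2 activity (ENSMUSG00000003849, chr8:107388225-107403206, minus strand), had 99 and 45 counts in the PTS + RS libraries and 78 and 123 counts in the RS libraries. These correspond to 5.78 and 2.69 CPM against 4.30 and 7.76 CPM, and the groups overlapped. The log2 fold change of -0.50 had the widest interval of the 10 genes, from -1.48 to 0.48 (adjusted p = 0.585, edgeR), and without single libraries it ranged from -1.15 to -0.03.

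The other redox genes were described by 6 lists of 91 genes in all, of which 89 were tested. In PTS + RS against RS, 5 of the 89 passed as higher and 1 as lower. Of all 17581 tested genes, 2.96% passed as higher and 0.586% as lower. The median log2 fold change of the 89 genes was 0.02, compared with -0.0015 for all genes. In the list of NRF2 regulators and other targets, 2 of 20 passed as higher. Hmox1, the haem oxygenase that is a target of NRF2, had 12.8 and 18.6 CPM in the PTS + RS libraries and 4.69 and 3.597 CPM in the RS libraries (log2 fold change 1.91, SE 0.24, adjusted p = 0.00839, edgeR). Nfe2l2, which encodes NRF2 itself, had 39.1 and 28.7 CPM against 15.2 and 16.2 CPM (log2 fold change 1.11, SE 0.17, adjusted p = 0.0156, edgeR). The groups did not overlap for either gene, yet the median of the list was -0.0049, with 10 genes above 0 and 10 below.

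In the list of selenoprotein machinery and metallothioneins, 3 of 15 passed as higher. Selenop, the secreted carrier of selenium, had 299.5 and 243 CPM in the PTS + RS libraries and 157 and 136 CPM in the RS libraries (log2 fold change 0.89, SE 0.12, adjusted p = 0.0112, edgeR). The metal-binding protein gene Mt1 had 381 and 395 CPM against 158 and 140.2 CPM (log2 fold change 1.38, SE 0.09, adjusted p = 0.000591, edgeR). Mt3, named after its values were seen because it completes the count, had a log2 fold change of 0.76 (SE 0.12, adjusted p = 0.0197, edgeR).

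In the thioredoxin and glutaredoxin system 0 of 14 passed as higher and 1 as lower. This was Txn1, the thioredoxin that reduces peroxiredoxins, with 25.5 and 27.05 CPM in the PTS + RS libraries and 38.0 and 37.9 CPM in the RS libraries (log2 fold change -0.53, SE 0.10, adjusted p = 0.0372, edgeR). Txn1 therefore differed in the opposite direction to Prdx1, but it did not pass without RS replicate 1 (adjusted p = 0.207) or RS replicate 2 (adjusted p = 0.222). None of the 16 genes of glutathione synthesis and recycling, 14 glutathione transferases or 10 other peroxidases and SOD partners passed. The lowest p among them belonged to Me1, the cytosolic malic enzyme that makes NADPH (log2 fold change 0.31, adjusted p = 0.0917), to Mgst1, a microsomal glutathione transferase (0.92, adjusted p = 0.0867), and to Ccs, given above (edgeR). The redox gene lists are plotted with the genes that passed.

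**Figure D4:**
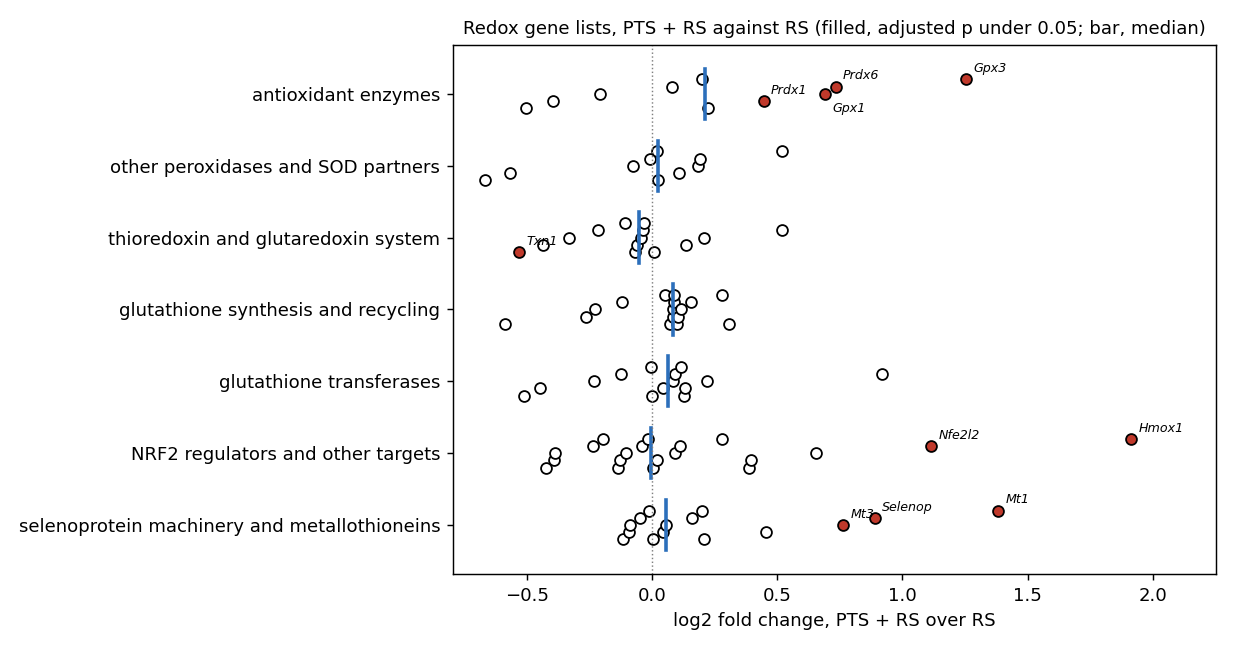
Log2 fold change in PTS + RS against RS (horizontal axis) of each tested gene in 7 redox gene lists (vertical axis), filled and named where the adjusted p was under 0.05, with the list median as a bar. The antioxidant enzymes have a median of 0.21, the median of each other list lies between -0.05 and 0.09, and Hmox1 has the highest value at 1.91.

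Markers of other cells moved in the same comparison. All 12 microglia markers passed as higher in PTS + RS, with a summed level of 1343 to 1558 CPM against 281 to 307 CPM in RS and no marker at 0 in any library. Of the 12 astrocyte markers 4 passed as higher, with sums of 8333 and 7117 CPM against 4975 and 5002 CPM. Markers of neurons summed to 10261 and 12037 CPM after stroke and to 11828 and 11735 CPM in RS, and 0 of 12 passed. The neutrophil markers were low, at 6.71 and 8.74 CPM against 0.276 and 0.252 CPM. Of these 8 markers, 3 were at 0 in each PTS + RS library, and 5 and 6 were at 0 in the RS libraries. Only 1 of the 8 had enough reads to be tested, and it passed as higher (log2 fold change 5.52). All 12 oligodendrocyte markers and all 12 endothelial markers had positive log2 fold changes, and 1 and 0 of them passed as higher. In bulk tissue, more or fewer cells of a type and more or less RNA per cell cannot be told apart. The part of these cell types in the higher levels of Gpx1, Gpx3, Prdx1 and Prdx6 was not tested. Choroid plexus markers summed to 2544 and 227 CPM in the PTS + RS libraries and to 2772 and 5566 CPM in the RS libraries, and 0 of 10 passed.

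The comparison of RGFP109 with NaCl asks what RGFP109 changes in mice with stroke and restraint stress. By the paper RGFP109 also acts on HDAC1, so that HDAC3 alone cannot be told apart. None of the 10 antioxidant enzymes passed the test in either direction, and Gpx3 had the largest difference, at 0.44-fold of the NaCl level. By edgeR 0% of the 17565 tested genes passed, 0 higher and 0 lower, while 88 were higher and 118 lower at an unadjusted p under 0.05 (0.501% and 0.672%), and none of the 10 was among these. DESeq2 passed 1 gene as lower and 0 as higher, limma-voom 0, and no antioxidant enzyme passed by either. The log2 fold changes of the 10 genes ran from -1.18 to 0.10 with a median of -0.10, and that of all genes was -0.02. The spread between libraries was large, with a biological coefficient of variation of 32.1% against 11.4% between PTS + RS and RS. The former includes any difference between tissue labels, because cortex and amygdala labels were mixed within each group. The main fit had no term for the label. With the replicate number as a block, none of the 10 passed either. The width of the 95% intervals of the 10 genes ran from 0.84 to 3.08 on the log2 scale, compared with 0.33 to 1.96 between PTS + RS and RS.

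Gpx3 had 103 and 229 counts in the RGFP109 libraries and 172 and 542 counts in the NaCl libraries, or 6.53 and 10.7 CPM against 9.78 and 29.5 CPM. The NaCl replicate 2 library was far above the rest, while NaCl replicate 1 lay between the RGFP109 libraries. The log2 fold change of -1.18 had an interval from -2.72 to 0.35 (adjusted p = 1.00, edgeR), and it was -0.17 without NaCl replicate 2 and -1.77 without NaCl replicate 1. In the same NaCl replicate 2 library, red blood cell markers summed to 439 CPM against 1.65 to 127 CPM elsewhere, microglia markers to 770 CPM against 288 to 627 CPM in the other 3 libraries of this comparison, and neutrophil markers to 28.8 CPM against 0.796 to 13.4 CPM. The part of these cells in the level of Gpx3 was not tested.

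Gpx1 had 44.3 and 63.8 CPM with RGFP109 and 56.1 and 79.2 CPM with NaCl. The groups overlapped, and replicate 2 was higher in both, with a log2 fold change of -0.32 (95% interval -1.04 to 0.40). Prdx1 had 86.7 and 95.7 CPM against 108 and 102 CPM, and was the only one of the 10 whose RGFP109 libraries lay wholly below the NaCl libraries, as 13.8% of all genes did. Its log2 fold change of -0.20 had an interval from -0.62 to 0.22. The log2 fold changes were -0.21 for Nqo1, -0.13 for Sod3, -0.07 for Sod1, -0.05 for Gpx4, 0.04 for Cat, 0.04 for Prdx6 and 0.10 for Sod2, and each of these groups overlapped.

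Because the replicate number was also the tissue label, RGFP109 was compared with NaCl within each number, without a test. The log2 ratio had the same direction in both numbers for 5 genes and opposite directions for 5. Gpx1 was lower with RGFP109 in both, with log2 ratios of -0.34 in replicate 1 (95% counting interval -0.48 to -0.20) and -0.31 in replicate 2 (-0.42 to -0.20). Gpx3 was also lower in both, with log2 ratios of -0.58 (-0.95 to -0.22) and -1.46 (-1.69 to -1.24), and Prdx1 with -0.31 and -0.10. Gpx4 had opposite directions beyond counting error, with 0.14 in replicate 1 (0.06 to 0.22) and -0.24 in replicate 2 (-0.31 to -0.16). These intervals cover counting error only and not the difference between mice or dissections, and the NaCl library of replicate 1 is the one with olfactory bulb genes.

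**Figure D5:**
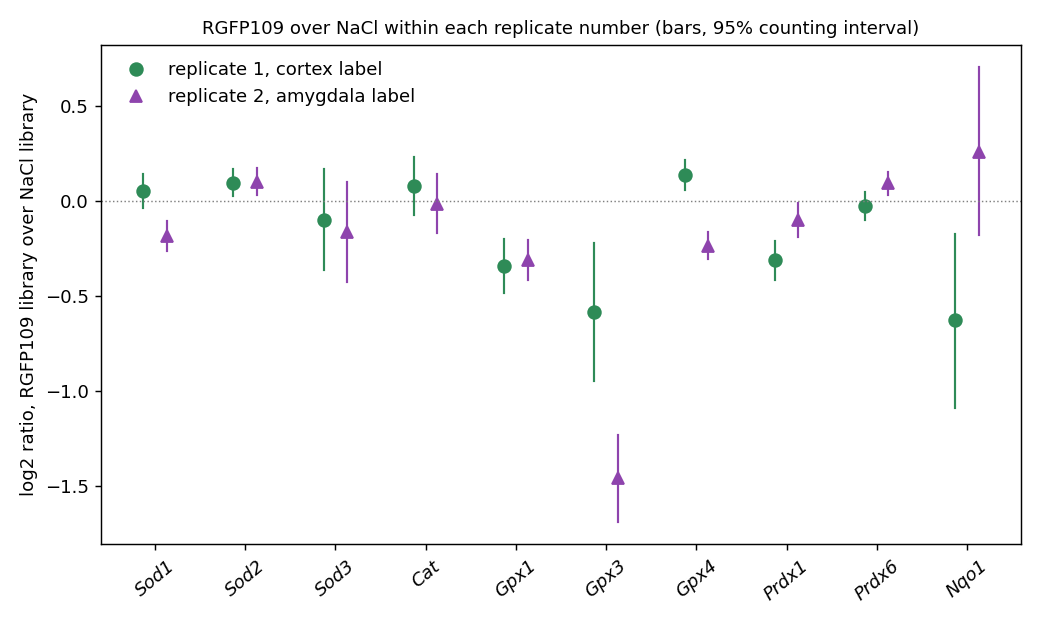
Log2 ratio of the RGFP109 library over the NaCl library for each antioxidant enzyme within replicate 1 (circles, cortex label) and replicate 2 (triangles, amygdala label), with bars for the 95% counting interval. Gpx1 and Gpx3 are below 0 in both replicates, and Gpx4 is at 0.14 in replicate 1 and -0.24 in replicate 2.

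The other redox genes did not pass either with RGFP109, with 0 of 89 higher and 0 lower and a median log2 fold change of -0.04. The genes with the lowest p in each list were Mgst1 (log2 fold change -0.89), Selenom (-0.78), Osgin1 (-0.94), Pxdn (0.65), Txnrd3 (-1.33) and G6pdx (-0.28), each at an adjusted p of 1.00 (edgeR). For Txnrd3, a thioredoxin reductase, the NaCl replicate 1 library alone was high, with 14.8 CPM against 3.41 to 3.93 CPM in the other 3 libraries, and the log2 fold change was 0.0029 without it. Hmox1 and Nfe2l2, which were higher after stroke, had 5.71 and 7.66 CPM and 16.8 and 22.4 CPM with RGFP109, and 5.29 and 11.3 CPM and 23.2 and 20.9 CPM with NaCl.

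In the same 4 libraries the 2 labelled amygdala were compared with the 2 labelled cortex. Cortex markers go against these labels. The summed amygdala markers go with the labels in RGFP109 replicate 1 (357 CPM) but not in NaCl replicate 1 (892 CPM). Of the 10 amygdala markers, 7 had a positive log2 fold change in this comparison and 3 a negative one. None of the 10 antioxidant enzymes passed, and 0% of the 17565 tested genes passed by edgeR, with 1197 higher and 773 lower at an unadjusted p under 0.05 (6.81% and 4.40%), none of them among the 10. DESeq2 passed 291 genes as higher and 104 as lower, and none of the 10. Gpx3 had 10.7 and 29.5 CPM in the libraries labelled amygdala and 6.53 and 9.78 CPM in those labelled cortex (log2 fold change 1.30, 95% interval -0.12 to 2.71, adjusted p = 0.478, edgeR). Gpx1 had 63.8 and 79.2 CPM against 44.3 and 56.1 CPM (0.51, interval -0.0022 to 1.02, adjusted p = 0.447), and Cat had 33.5 and 33.8 CPM against 44.1 and 41.7 CPM (-0.35, interval -0.71 to 0.0081, adjusted p = 0.453). The groups did not overlap for these 3 genes. In all, 4 of the 10 genes lay wholly higher and 3 wholly lower in the libraries labelled amygdala, against 21.6% and 22.4% of all genes.

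These values depended on the NaCl replicate 1 library and on RGFP109 replicate 1. Without NaCl replicate 1, Gpx3 and Gpx1 passed (log2 fold change 1.62 and 0.70, adjusted p = 0.000127 and 0.00150, edgeR), and without RGFP109 replicate 1 Gpx3 passed (1.03, adjusted p = 0.000834). In these fits 8.27% and 15.1% of all genes passed as higher, so that 2 and 1 of 10 enzymes are near the share of all genes. A single library was then assumed to vary like the others. Microglia markers summed to 627 and 770 CPM in the libraries labelled amygdala and to 363 and 288 CPM in those labelled cortex, and red blood cell markers to 127 and 439 CPM against 1.65 and 13.1 CPM. The part of these cells in the levels of Gpx1 and Gpx3 was not tested, and tissue and replicate number cannot be told apart in this design. Of the other redox genes 0 of 89 passed in either direction, and the lowest p in its list belonged to Txnip, Gstm7, Mt1, Akr1b10, Slc7a11 and Msrb1, with log2 fold changes of 0.89, -0.72, 0.75, -0.50, -0.33 and 0.49.

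The genes with the most similar pattern were listed for each enzyme by Pearson's r of log2 CPM over the 8 libraries, among 14424 protein-coding genes tested in both tables. These are descriptions over libraries that share groups and tissue labels. The nearest to Gpx1 were Rin3 (r = 0.971), Socs3 (0.963) and Sla (0.961), and to Gpx3 they were Lrrfip2 (0.973), St3gal6 (0.964) and Clec12a (0.963). Those to Prdx1 were Rtl8b (0.983), Ehd4 (0.973) and Selenop (0.973), and those to Prdx6 were H2-Q7 (0.966), Adgrl4 (0.962) and Ifngr1 (0.953). Sod1 was nearest to Hnrnpul2 (0.996), Atp6v0c (0.992) and Map1lc3a (0.992), and Sod2 to Tfrc (0.968), the transferrin receptor gene, Gnl3l (0.951) and Slc11a2 (0.948). For Cat, Sod3, Gpx4 and Nqo1 the nearest were Lrp10 (0.988), Ifi27 (0.981), Cdkn2b (0.920) and Tdrd3 (0.920). None of the 10 enzymes was among the 3 nearest genes of another. Only 3 of 14424 genes were named for each enzyme, so that this says little about likeness among the enzymes.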

How the data were processed

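Total RNA of mouse brain was sequenced in 8 libraries. Per the labels and the study's methods, the authors aligned reads to GRCm38 with STAR 2.4.0 and counted reads per gene with HTSeq 0.6.1. The deposited tables hold the raw count of each gene per library and the FPKM of the authors, which is the count over gene length and over 1 factor per library. The library kit is named differently in the labels and in the methods, and the strand setting of the counting is not given in the sources used here. The deposited fold changes and p-values of the authors' own comparisons were not used, nor were 8 columns of normalized values per library. Gene coordinates of the 10 enzymes equal those of GENCODE M21.

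Counts were analysed with edgeR 4.0.16 in R 4.3.3: filterByExpr, TMM normalization and the quasi-likelihood test, fitted on all genes of a table, with Benjamini-Hochberg adjustment over 17581 or 17565 tested genes and a threshold of 0.05. CPM are counts scaled to the TMM library size. Groups came from the sample labels, with 2 libraries each. With 2 against 2 libraries, an exact permutation test of a single value cannot go below p = 0.333, and was not used. The alternatives were DESeq2 size factors, DESeq2 1.42.0, limma-voom (limma 3.58.1), no filter on low counts, the replicate number as a block, treatment as a term for the tissue labels, and leaving out each library. Depth was 15902013 to 21712033 counts per library. All 10 enzymes were named. Of each redox list, up to 2 genes with the highest and 2 with the lowest log2 fold change among those that passed were named, or else the gene with the lowest p. The enzymes and all gene lists were chosen with earlier results of these data known. The correlation of deviations from the group mean between libraries of the same number was 0.035 for PTS + RS and RS and 0.30 for RGFP109 and NaCl, where the number is also the tissue label. Figures were drawn with matplotlib 3.10.9.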

Additional observations from a re-analysis of the deposited data

Results flagged for a closer look

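Gpx4 drew attention because RGFP109 and NaCl differed in opposite directions in the 2 replicate numbers, which carry different tissue labels. The log2 ratio of RGFP109 over NaCl was 0.137 in replicate 1, labelled cortex, and -0.236 in replicate 2, labelled amygdala, each beyond its counting interval. With 1 library of each treatment per number, the difference was not tested. The processed copy Gpx4-ps2 was at 26.9 and 26.96 CPM in the RGFP109 and NaCl libraries of replicate 1 and at 27.9 and 36.1 CPM in those of replicate 2.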

How the results depend on the processing

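The number of antioxidant enzymes higher in PTS + RS than in RS was 4 with edgeR, with DESeq2, DESeq2 size factors, limma-voom, no filter on low counts and the replicate block, and 1 to 5 when single libraries were left out. Among fits that kept all libraries, the number lower was 0 in the main fit, 1 without the filter and 1 with the replicate block. In these fits 0.586%, 2.38% and 1.3% of all genes passed as lower. This gene was Sod1, at an adjusted p of 0.0012 without the filter and 0.0358 with the replicate block (edgeR). The log2 fold change of Sod1 was -0.27 without PTS + RS replicate 1 and -0.53 without PTS + RS replicate 2. Of the other redox genes 9 were higher and 6 lower without the filter, where 3.72% and 2.38% of all genes were. With the replicate block 2 were lower, where 1.3% of all genes were. Over all genes, 521 were higher and 103 lower, compared with 1119 and 716 without the filter, 687 and 228 with the replicate block, 166 lower with DESeq2, and 339 to 1413 higher and 32 to 1278 lower without single libraries. Sod3 lay between -0.044 and 0.19 on the log2 scale without single libraries. The numbers of PTS + RS and RS did not pair the libraries, with a correlation of their deviations of 0.035, so that the block result is given only as an alternative. For RGFP109 against NaCl no antioxidant enzyme and no other redox gene passed under any alternative, the paired fit included. Over all genes DESeq2 gave 1 lower, and 15 higher and 78 lower were found without NaCl replicate 2. Signs turned without single libraries for Cat (-0.17 to 0.23), Gpx4 (-0.17 to 0.080), Nqo1 (-0.48 to 0.13), Prdx6 (-0.13 to 0.19), Sod1 (-0.19 to 0.066) and Txnrd3 (-2.01 to 0.0029). For the tissue labels 0 to 2 antioxidant enzymes were higher without single libraries (2 without NaCl replicate 1 and 1 without RGFP109 replicate 1), and 0 to 13 other redox genes were higher and 0 to 12 lower. Over all genes DESeq2 gave 291 higher and 104 lower, and 13 were higher without the filter. Leaving out RGFP109 replicate 1 gave 2831 higher and 2552 lower, and leaving out NaCl replicate 1 gave 1540 and 1025. Signs turned for Gpx4 (-0.054 to 0.17), Nqo1 (-0.48 to 0.16) and Prdx1 (-0.12 to 0.20). The cause of these shifts was not tested. A fit without 1 library assumes that the lone library of its group varies like the other group. With 2 libraries per group the spread between libraries, and for genes with few counts, such as Nqo1, also the depth, limit the precision.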
